A study of Mus musculus with 4 samples.

Results

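The enzymes of mitochondrial fatty acid oxidation were examined in bone marrow-derived macrophages (BMDMs) of the mouse, with and without butyrate. The group held 10 genes chosen by symbol, *Cpt1a*, *Cpt2*, *Acadvl*, *Acadm*, *Acads*, *Echs1*, *Hadh*, *Hadha*, *Hadhb* and *Acat1*, and all 10 were among the 16375 genes in the deposited expression table. RNA sequencing had been done on 4 groups with 1 library each. Macrophages of the wild type (WT) and of the knockout of the long noncoding RNA *lncLy6c* (LNCKO) were each kept as a control or given 500 µM butyrate for 24 h. By the methods of the study, the *lncLy6c* exons were deleted with CRISPR-Cas9 in zygotes on a C57BL/6J background, so the loss is not limited to macrophages, and bone marrow cells of both genotypes were differentiated with macrophage colony-stimulating factor (M-CSF). The sample labels give no age or sex of the donor mice and do not say how many mice or cultures a library holds.

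Fatty acids are burned in the mitochondrial matrix by beta-oxidation, a cycle of dehydrogenation, hydration, a further dehydrogenation and thiolytic cleavage that releases acetyl-CoA. Long-chain acyl groups enter through the carnitine shuttle, which CPT1A on the outer membrane controls, whereas butyrate and other short-chain acids cross without it. Butyryl-CoA is oxidised by ACADS, ECHS1 and HADH, and ACAT1 cleaves the resulting acetoacetyl-CoA. In macrophages, fatty acid oxidation is best known from alternatively activated cells, and in the colon butyrate is the main fuel of the epithelium.

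Library depth ranged from 53363944 to 65521713 fragments, recovered from the ratios between the deposited values. FPKM (fragments per kilobase, scaled to the depth of the library) had been computed by the authors on the whole genomic span of each gene, introns included. With the spans of the GENCODE M21 annotation, 98.4% of 16342 matched genes, all 10 fatty acid oxidation genes among them, gave a whole number of fragments in the 4 libraries (within 0.01). Each value below can thus be given with an exact 95% interval, which covers counting error only. With 1 library per group there was no spread between replicates of a group and no test of a condition was run. A model with additive terms for genotype and butyrate, which would leave 1 residual degree of freedom, was not fitted. A difference between libraries is not shown to be a difference between conditions. The summed FPKM of 10 macrophage markers was 2754 (control) and 3719 (butyrate) in WT and 2379 and 1661 in LNCKO. The sum thus differed with butyrate in opposite directions in the genotypes, but the median change of these markers did not. That median, as log2 of the ratio of FPKM + 0.1, was 0.17 in WT and 0.05 in LNCKO. The summed FPKM of 8 B cell markers ranged from 164 in WT butyrate to 217 in LNCKO butyrate. The sum of 10 neutrophil and granulocyte precursor markers was 2759 and 3218 in WT and 2407 and 2314 in LNCKO. That of 9 T and NK cell markers lay between 15.3 and 20.004, and of 7 mast cell and basophil markers between 35.2 and 72.2. Erythroid markers summed to 5.99 and 6.68 in WT and to 22.6 and 64.6 in LNCKO, with *Klf1* at 0 in at least 1 of the 4, and stromal markers ranged from 3.37 in LNCKO control to 11.5 in WT control. The Y-linked *Ddx3y* had 65 and 49 fragments in WT and 6128 and 7764 in LNCKO. *Eif2s3y* (85 and 23 against 4631 and 7117), *Kdm5d* (16 and 33 against 2563 and 2882) and *Uty* (37 and 27 against 2051 and 2419) had the same pattern. By these genes, the WT cells were nearly all female and the LNCKO cells male at least in part. Each comparison between the genotypes, that of their butyrate responses included, is thus also one of donor sex, and sex and genotype cannot be told apart. The part of these cell types in the values below was not tested, and in bulk RNA fewer cells of a type and less RNA per cell cannot be told apart.

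The genes for the subunits of the trifunctional protein, *Hadha* and *Hadhb*, lie head to head on chromosome 5 of GRCm38, from 30118304 to 30155162 on the - strand and from 30155248 to 30184593 on the + strand, with 86 bases between their starts in GENCODE M21. The first sequence is the start region of *Hadhb* (RefSeq, GRCm38.p6, chr5:30155003-30155302, + strand, 250 bases before to 50 after the start), which also holds the start of *Hadha* in GENCODE M21. It is shown because the genes of both subunits begin in this stretch in GENCODE M21. The RefSeq start region of *Hadha*, used for the motifs below, is chr5:30154931-30155230 (- strand). It overlaps this stretch in part, and its start lies outside it. The start regions of *Acads* (chr5:115119297-115119596, - strand) and *Acadm* (chr3:153944594-153944893, - strand) are shown because these dehydrogenases had opposite signs with butyrate in both genotypes. Capitals mark matches on either strand to the GC box GGGCGG, the nuclear receptor hexamer AGGTCA or the NRF1 core GCATGCGC.

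Hadhb: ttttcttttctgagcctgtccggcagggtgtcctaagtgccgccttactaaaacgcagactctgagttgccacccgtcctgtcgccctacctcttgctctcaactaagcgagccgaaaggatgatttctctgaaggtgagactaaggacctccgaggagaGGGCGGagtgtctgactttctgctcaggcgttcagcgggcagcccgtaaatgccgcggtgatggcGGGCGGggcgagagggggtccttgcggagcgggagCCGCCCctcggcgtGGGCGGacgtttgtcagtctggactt

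Acads: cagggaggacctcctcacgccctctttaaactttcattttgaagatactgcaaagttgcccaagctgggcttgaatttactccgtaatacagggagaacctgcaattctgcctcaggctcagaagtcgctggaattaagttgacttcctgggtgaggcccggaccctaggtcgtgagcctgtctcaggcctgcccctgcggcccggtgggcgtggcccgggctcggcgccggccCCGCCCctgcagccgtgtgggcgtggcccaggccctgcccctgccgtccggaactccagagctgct

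Acadm: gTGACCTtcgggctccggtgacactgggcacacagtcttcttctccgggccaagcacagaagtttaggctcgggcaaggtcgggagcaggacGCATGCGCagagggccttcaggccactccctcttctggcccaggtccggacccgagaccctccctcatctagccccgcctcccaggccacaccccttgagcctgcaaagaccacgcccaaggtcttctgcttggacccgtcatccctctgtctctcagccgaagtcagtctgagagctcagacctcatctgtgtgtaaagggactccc

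Start regions were given for 9 of the 10 genes, all but *Acat1*. The GC box was found in 7 of these 9 and in 35.9% of 27025 start regions of the same length, and it was absent from those of *Acadm* and *Acadvl*. The regions of *Hadha* and *Hadhb* overlap, and the only GC box of *Hadha* is a site that is also counted for *Hadhb*. The hexamer AGGTCA, to which PPAR and other nuclear receptors bind, was found in 4 (*Acadm*, *Acadvl*, *Cpt1a* and *Echs1*) and in 16.04% of all regions. The NRF1 core was found in *Acadm* alone among the 9, and in 2.80% of all. No start region of the 9 held a direct repeat of AGGTCA with 1 base between (0.0444% of all), the estrogen-related receptor element TCAAGGTCA (0.407%), the cAMP response element TGACGTCA (1.88%) or the TATA box TATAAA (14.2%), and CCAAT was found in *Cpt1a* and *Hadh* (37.9%). These are matches of letters in a short window, on both strands, and the AGGTCA hexamer also forms part of TCAAGGTCA. The regions held 9 (*Acadvl*) to 24 (*Hadhb*) CpG dinucleotides against a median of 7 in all regions, and the share of all regions with as many was not counted.

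Levels were compared between genes after the fragments had been divided by the length of the principal transcript in place of the gene span. On this transcript-length FPKM scale, *Cpt1a* had the highest mean level over the 4 libraries, 45.0, followed by *Echs1* with 37.6 and *Hadha* with 31.0. *Acadm* with 22.9 and *Acadvl* with 22.0 came next and overlapped across the libraries, as did *Acads* with 15.4, *Hadh* with 14.9 and *Acat1* with 14.1. *Hadhb* with 8.32 and *Cpt2* with 7.82 were lowest. Thus the gate of the carnitine shuttle, CPT1A, was represented by more transcript than CPT2, the enzyme at its matrix side, in each of the 4 libraries. The order depends on the length taken. With the union of all annotated exons, *Cpt1a* stayed first and *Acadvl* came second, while *Echs1* moved from place 2 to place 8. The low place of *Hadhb* has a limit of its own, since processed pseudogenes match its transcript over 1428 bases at 99.8% identity (*Gm13910*) and over 1426 bases at 97.6% (*Gm9108*), and how the authors' counting treated reads that match more than 1 place is not known. *Acadm* has a more distant copy, *Gm5131*, with 93.5% identity over 681 bases.

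**Figure D1:**
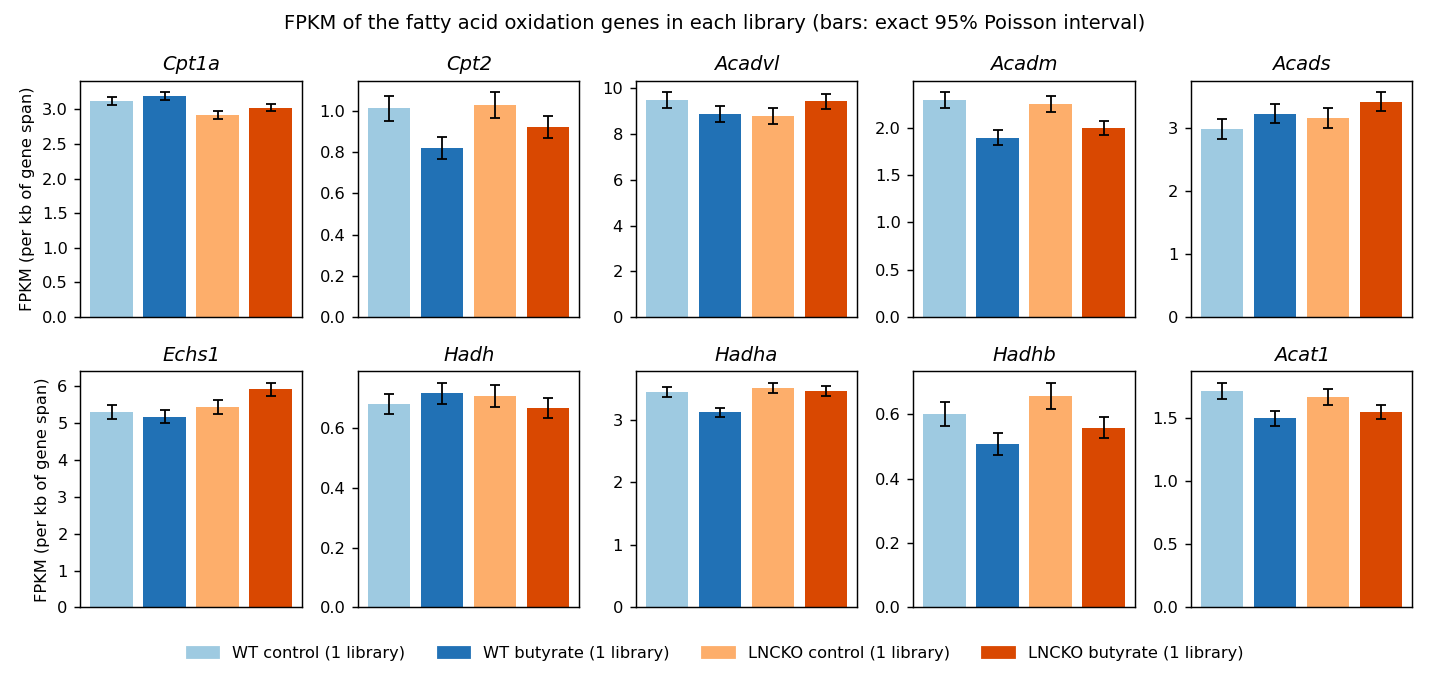
Bars give the deposited FPKM (per kilobase of gene span, y axis from 0) of each of the 10 genes in the control and butyrate libraries of WT and LNCKO, 1 library each, and error bars give the exact 95% Poisson interval of the fragments. Within a gene the 4 bars lie close together, with a highest over lowest ratio from 1.07 (*Hadh*) to 1.30 (*Hadhb*). *Acadm*, *Cpt2*, *Hadhb* and *Acat1* have their lower bars in the butyrate libraries of both genotypes, and how many of all genes do was not counted.

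The first question was whether these genes differed with butyrate in WT macrophages. They did so by little. Of the 10 genes, 7 were lower and 3 higher with butyrate, with *Cpt2*, *Acadm*, *Hadhb* and *Acat1* lowest and *Acads*, the enzyme that oxidises butyryl-CoA, highest. On the scale of log2(FPKM + 0.1), which slightly understates changes of low values, the changes ran from -0.27 (*Cpt2*) to 0.11 (*Acads*) with a median of -0.11, against a median of -0.05 over the 6809 genes that averaged 1 FPKM or more. The fold limit used here is a log2 change of 0.32 in either direction. No member was past it, whereas 11.2% of these genes were. Of the 10, 7 reached a mean FPKM of 1, and *Cpt2* (0.945), *Hadh* (0.690) and *Hadhb* (0.581) did not, although all had at least 881 fragments in each library. By counting error alone, 6 of 10 were lower with butyrate, where 45.1% of 10426 genes with a mean of at least 200 fragments were lower, and 1 of 10 was higher, where 22.9% were. The share of lower genes was thus close to that of the transcriptome, in which 63.1% of the 6809 genes had a value below 0.

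In LNCKO macrophages, too, the differences with butyrate were small. The genes *Hadhb*, *Acadm*, *Cpt2* and *Acat1* were again lower and *Acads* again higher, and *Echs1* and *Acadvl*, which had values below 1 in WT, were higher here. The log2 changes ran from -0.20 (*Hadhb*) to 0.12 (*Echs1*), with a median of -0.05 against -0.02 over all genes, and 6 genes were lower and 4 higher, where 57.8% of all genes were lower. None of the 10 was past the fold limit, whereas 3.1% of genes were. Counting intervals lay below 1 for 4 members (31.9% of genes) and above 1 for 4 (19.6%). In both genotypes together, 5 members were lower in each and 2 higher in each, where 38.8% and 17.9% of the 6809 genes were.

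**Figure D2:**
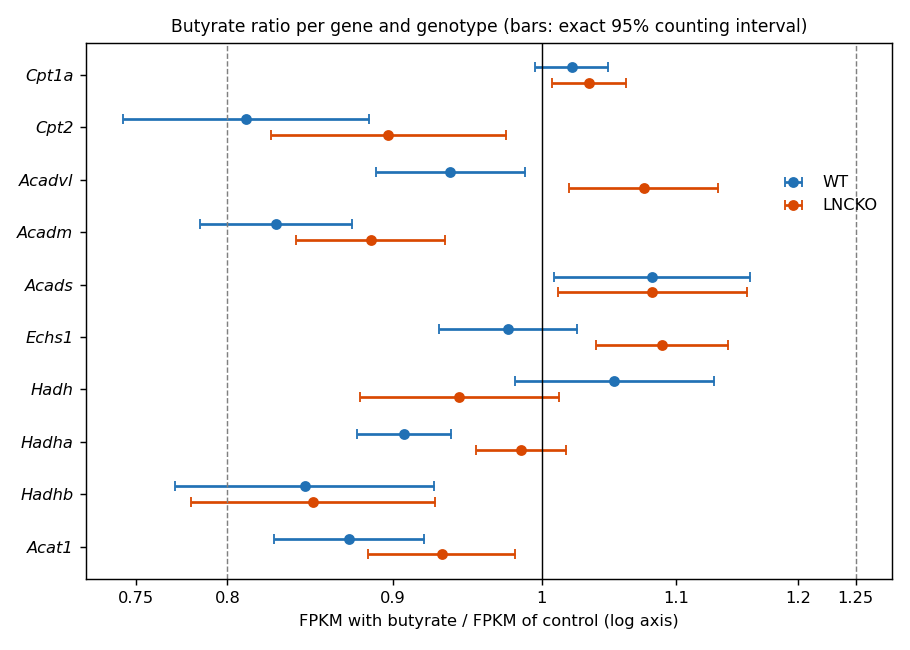
Points give the ratio of FPKM with butyrate to FPKM of control (log axis) for each gene, in WT and LNCKO macrophages, 1 library per group, and bars give the exact 95% interval from the fragment counts. Dashed lines mark the fold limit in either direction, and all points lie between them, from 0.811 for *Cpt2* in WT to 1.09 for *Echs1* in LNCKO.

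**Figure D3:**
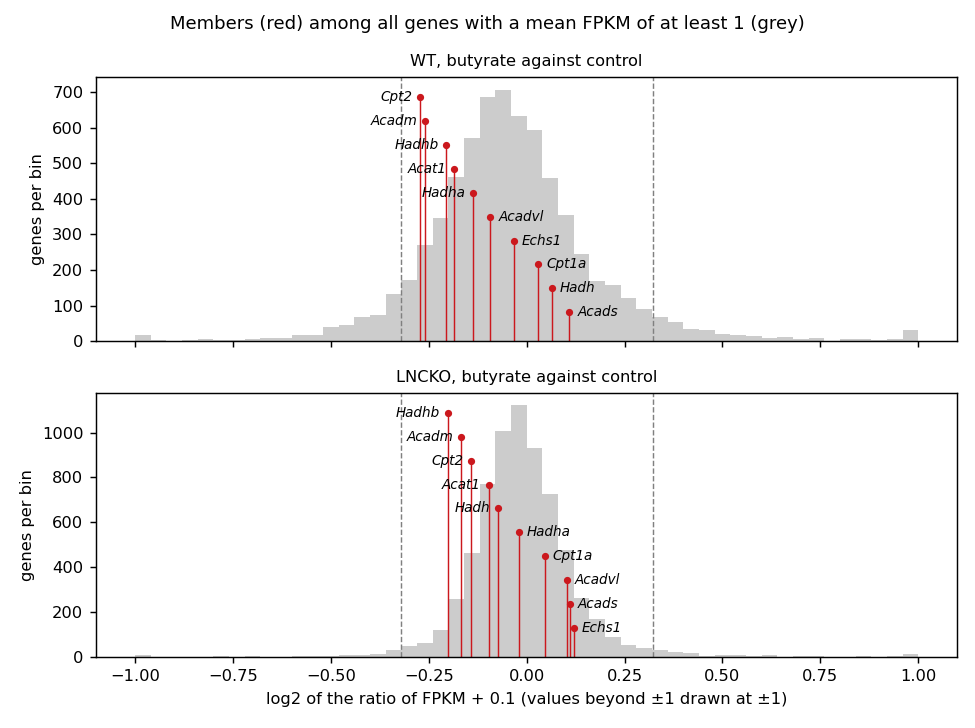
Grey bars show how the log2 ratios of FPKM + 0.1 with butyrate are distributed over the 6809 genes that averaged 1 FPKM or more (y axis, genes per bin), for WT above and LNCKO below, with values beyond ±1 drawn at ±1. Red lines mark the 10 fatty acid oxidation genes, 3 of which are below that mean FPKM, and all lie inside the dashed lines at the fold limit.

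The carnitine shuttle was read through *Cpt1a* and *Cpt2*, which encode the acyltransferases on its outer and inner side. *Cpt1a* (ENSMUSG00000024900, chromosome 19, 3322334 to 3385733, + strand) had an FPKM of 3.12 (control) and 3.19 (butyrate) in WT and of 2.92 and 3.02 in LNCKO. It was nearly level, with 9885 to 12553 fragments behind each value. With butyrate it was 1.02 times the control in WT (95% counting interval 0.996 to 1.05) and 1.03 times in LNCKO (1.01 to 1.06). *Cpt2* (ENSMUSG00000028607, chromosome 4, 107903981 to 107923610, - strand) stood at 1.01 and 0.820 in WT and at 1.03 and 0.921 in LNCKO, in the same order. Both butyrate libraries were below both controls. The ratio was 0.811 (0.743 to 0.885) in WT and 0.897 (0.825 to 0.975) in LNCKO. How many of all genes had both butyrate libraries below, or above, both controls was not counted, here or for the genes below. Of the 6809 genes, 38.8% were lower and 17.9% higher with butyrate in both genotypes.

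The acyl-CoA dehydrogenases open each round of the cycle and are divided by chain length. *Acadvl* (ENSMUSG00000018574, chromosome 11, 70010183 to 70015411, - strand), which acts on very long chains at the inner membrane, had an FPKM of 9.47 (control) and 8.87 (butyrate) in WT and of 8.77 and 9.43 in LNCKO. It was lower with butyrate in WT, at 0.937 times the control (0.889 to 0.988), and higher in LNCKO, at 1.08 times (1.02 to 1.13). Its 3′ end shares 2119 bases of span with *Dvl2* on the other strand, which had log2 changes of -0.34 in WT and -0.40 in LNCKO, and whether counting used the strand is not known. *Acadm* (ENSMUSG00000062908, chromosome 3, 153922357 to 153944632, - strand), the medium-chain enzyme, had 2.29 and 1.90 in WT and 2.25 and 1.99 in LNCKO. Here too both butyrate libraries were below both controls, at 0.828 times the control in WT (0.785 to 0.874) and 0.886 times in LNCKO (0.840 to 0.934). *Acads* (ENSMUSG00000029545, chromosome 5, 115110299 to 115119346, - strand), the short-chain enzyme whose main substrate is butyryl-CoA, had 2.98 and 3.22 in WT and 3.15 and 3.41 in LNCKO. Both butyrate libraries were above both controls, and the ratios were the same in both genotypes to 3 digits, 1.08 (1.01 to 1.16 in WT and in LNCKO). The lower limits are close to 1, so that counting error nearly covers this difference.

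The middle of the cycle is carried by a hydratase and a hydroxyacyl-CoA dehydrogenase, encoded for short chains by *Echs1* and *Hadh*. *Echs1* (ENSMUSG00000025465, chromosome 7, 140105710 to 140116476, - strand) had an FPKM of 5.28 (control) and 5.16 (butyrate) in WT and of 5.41 and 5.90 in LNCKO. The last of these was the only library that stood apart, with butyrate ratios of 0.977 (0.930 to 1.03) in WT and 1.09 (1.04 to 1.14) in LNCKO. The first 678 bases of the *Echs1* span overlap *Paox*, transcribed from the other strand. *Hadh* (ENSMUSG00000027984, chromosome 3, 131233419 to 131272101, - strand) had 0.678 and 0.714 in WT and 0.705 and 0.665 in LNCKO. Its libraries differed within counting error with butyrate, at 1.05 times the control in WT (0.981 to 1.13) and 0.943 times in LNCKO (0.879 to 1.01).

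The mitochondrial trifunctional protein carries out the last steps of the cycle for long chains, with the hydratase and dehydrogenase on its alpha subunit (*Hadha*) and the thiolase on its beta subunit (*Hadhb*). *Hadha* (ENSMUSG00000025745) had an FPKM of 3.44 (control) and 3.12 (butyrate) in WT and of 3.50 and 3.45 in LNCKO. The WT butyrate library was the low one, at 0.907 times its control (0.877 to 0.938), whereas LNCKO butyrate was at 0.985 times (0.954 to 1.02). At its 3′ end, 75 bases of span are shared with *Garem2* on the other strand. *Hadhb* (ENSMUSG00000059447) had 0.60 and 0.507 in WT and 0.657 and 0.559 in LNCKO. Its butyrate libraries were below both controls, with nearly the same ratio in WT (0.845, 0.771 to 0.926) as in LNCKO (0.850, 0.780 to 0.927). In LNCKO, the interval thus lay below 1 for the beta subunit and held 1 for the alpha subunit. *Acat1* (ENSMUSG00000032047, chromosome 9, 53580522 to 53610382, - strand), the thiolase that cleaves acetoacetyl-CoA in butyrate, ketone body and isoleucine breakdown, had 1.72 and 1.497 in WT and 1.66 and 1.55 in LNCKO. It was lower with butyrate in both genotypes, at 0.872 times the control (0.827 to 0.920) in WT and 0.931 times (0.884 to 0.982) in LNCKO. Among the enzymes of butyrate breakdown, the values were therefore mixed, with *Acads* higher and *Acat1* lower in both genotypes. *Echs1* and *Hadh* differed in sign between the genotypes, but the counting interval held 1 for *Hadh* in both and for *Echs1* in WT.

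Ratios of fragments between members of the same library do not depend on the library total. Ratios were computed for 6 pairs, picked after their values had been seen, and are given as a description. The ratio of *Acads* to *Acadm* fragments was 0.528 (95% counting interval 0.496 to 0.562) in WT control and 0.689 (0.648 to 0.733) in WT butyrate, and 0.568 (0.533 to 0.605) in LNCKO control and 0.694 (0.655 to 0.735) in LNCKO butyrate. The intervals of control and butyrate did not overlap in either genotype, and the short-chain dehydrogenase was more abundant relative to the medium-chain one with butyrate in both. The ratio of *Cpt1a* to *Cpt2* was 9.96 (9.36 to 10.6) and 12.6 (11.7 to 13.4) in WT and 9.19 (8.63 to 9.79) and 10.6 (9.98 to 11.3) in LNCKO, again without overlap in either genotype. For *Hadh* to *Acadm*, the control and butyrate intervals were apart in WT, at 0.514 (0.483 to 0.548) and 0.654 (0.614 to 0.697), and overlapped in LNCKO, at 0.544 (0.510 to 0.580) and 0.579 (0.545 to 0.615). The ratio of *Hadha* to *Hadhb* was 7.19 (6.73 to 7.69) and 7.72 (7.19 to 8.29) in WT, with overlap, and 6.70 (6.27 to 7.16) and 7.76 (7.29 to 8.28) in LNCKO, without. The ratio of *Acads* to the very long-chain *Acadvl* was 0.544 (0.510 to 0.579) and 0.627 (0.590 to 0.666) in WT, apart, but 0.621 (0.582 to 0.663) and 0.625 (0.591 to 0.661) in LNCKO, nearly level. That of *Hadh* to *Hadha* was 0.207 (0.196 to 0.219) and 0.240 (0.228 to 0.254) in WT, apart, and 0.211 (0.199 to 0.223) and 0.202 (0.192 to 0.213) in LNCKO, with overlap. How often such intervals lie apart for other pairs of genes was not computed, so intervals that are apart do not set these pairs off. By counting error alone, 45.1% of the 10426 genes with a mean of at least 200 fragments were lower with butyrate in WT, and 22.9% were higher.

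**Figure D4:**
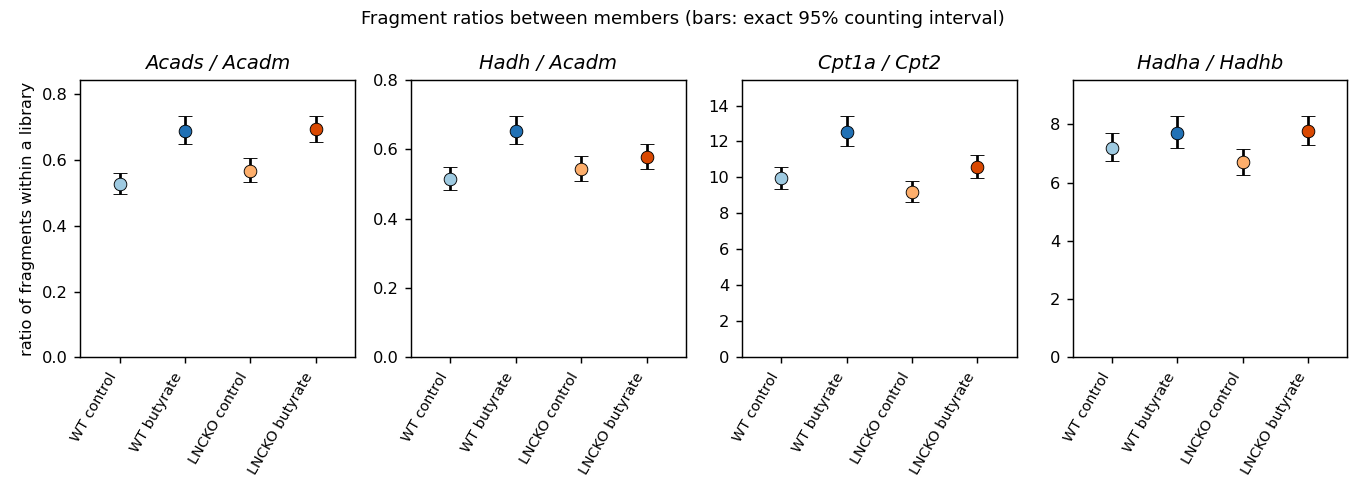
Points give the ratio of fragments between pairs of members within each library (y axis from 0), for control and butyrate of WT and LNCKO, 1 library each, and bars give the exact 95% counting interval. *Acads* over *Acadm* is at 0.528 and 0.568 in the controls and at 0.689 and 0.694 with butyrate.

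Without butyrate, there was almost no difference in these genes between the LNCKO and WT libraries, which also differed in donor sex. The log2 differences of LNCKO control from WT control ran from -0.11 (*Acadvl*) to 0.11 (*Hadhb*), with a median of 0.02, the same as over all genes (0.02), and 6 members were higher and 4 lower, where 43.3% of all genes were lower. None of the 10 was past the fold limit, whereas 4.46% of genes were. *Acadvl* at 0.927 times (0.877 to 0.979) and *Cpt1a* at 0.937 times (0.911 to 0.962) WT control were the 2 with a counting interval below 1 (21.1% of genes). *Hadhb* at 1.095 times (1.003 to 1.196) was the 1 above it (30.6% of genes), and not so when libraries were scaled by their median ratio.

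With butyrate, 8 of the 10 genes were higher and 2 lower in LNCKO than in WT macrophages, where 35.8% of the 6809 genes were lower. This comparison and the one before share libraries with the butyrate comparisons, so its values follow in part from those above. The log2 differences ran from -0.09 (*Hadh*) to 0.19 (*Echs1*), with a median of 0.08 against 0.06 over all genes, and 0 members were past the fold limit, whereas 11.5% of genes were. *Echs1* at 1.14 times (1.09 to 1.197), *Cpt2* at 1.12 times (1.03 to 1.22), *Hadha* at 1.11 times (1.07 to 1.14), *Hadhb* at 1.101 times (1.01 to 1.21) and *Acadvl* at 1.06 times (1.01 to 1.12) were the 5 with an interval above 1, where 45.1% of genes had one. *Cpt1a* at 0.948 times (0.925 to 0.972) and *Hadh* at 0.931 times (0.869 to 0.997) were the 2 below it (23.6% of genes). When libraries were scaled by their median ratio, 2 of these 5, *Hadha* and *Echs1*, were still above 1, *Acat1* turned from 0.05 to -0.01 on the log2 scale, and the split over all genes was 32.4% above and 33.5% below.

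The same scaling changed the split with butyrate in WT, where 33.1% of genes were below 1 and 32.9% above. Of the members, *Acadm*, *Cpt2*, *Hadha*, *Hadhb* and *Acat1* were then below 1, *Acads*, *Cpt1a* and *Hadh* were above it, and *Acadvl* was no longer below.

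The butyrate response was subtracted between the genotypes to ask whether it differed between them. The log2 response in WT minus that in LNCKO ran from -0.20 (*Acadvl*) to 0.14 (*Hadh*), with a median of -0.09 against -0.04 over all genes. The difference was below 0 for 9 of 10 members, against 58.8% of genes. For *Acads* and *Hadhb* it was within 0.01 of 0, and these and *Cpt1a* turned positive, to at most 0.04, when libraries were scaled by their median ratio. None was past the fold limit, whereas 13.6% of genes were. The difference could not be tested with 1 library per group, and genotype and donor sex cannot be told apart in it.

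The wider pathway was read from 98 genes in 9 lists, of which 95 were in the table and 67 averaged 0.5 FPKM or more. Those 67 had a median log2 change with butyrate of -0.11 in WT and -0.01 in LNCKO, and 5 were past the fold limit upwards and 6 downwards in WT, and 3 and 0 in LNCKO, beside 11.2% and 3.1% of the 6809 genes that averaged 1 FPKM or more and, as the filter on the lists is lower, 13.6% and 6.74% of all 16375 genes. The list with the highest median was that of genes that respond to PPAR, the fatty acid-activated nuclear receptors. Of the 5 genes described, 4 were higher with butyrate in each genotype, where 63.1% of the 6809 genes were lower in WT and 57.8% in LNCKO. The list's median was 0.43 in WT and 0.38 in LNCKO, and it rests on the 5 genes picked. *Cd36*, another PPAR target, was not on the list. It had log2 changes of -0.34 in WT and -0.29 in LNCKO, so a rise is not shown for PPAR targets as a set. *Fabp4*, a fatty acid-binding protein, had an FPKM of 4.42 (control) and 6.08 (butyrate) in WT and of 4.50 and 7.02 in LNCKO. *Hilpda*, which inhibits lipolysis in lipid droplets, had 1.29 and 1.87 in WT and 2.36 and 3.26 in LNCKO, and was also higher in LNCKO than in WT, by 0.82 on the log2 scale between the controls. The lipid droplet coat gene *Plin2*, with 31.5 and 42.6 in WT and 31.1 and 34.7 in LNCKO, had log2 changes of 0.43 and 0.15, and *Angptl4*, an inhibitor of lipoprotein lipase, of 0.29 and 0.38. *Ucp2*, a mitochondrial carrier, was the 1 gene of the list below 0, at -0.23 and -0.02. *Cpt1a* and *Acadm*, which are textbook PPAR targets too, had log2 changes of 0.03 and -0.26 in WT and of 0.05 and -0.17 in LNCKO.

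Enzymes around the cycle varied in sign. Their counts stand beside 63.1% of the 6809 genes lower in WT and 57.8% in LNCKO, and small negative values in WT are not set apart from the median of those genes, -0.05. Among auxiliary enzymes, *Eci1*, an isomerase for unsaturated chains, had an FPKM of 0.960 (control) and 0.715 (butyrate) in WT and of 0.894 and 0.724 in LNCKO. The thiolase gene *Acaa2* had log2 changes of -0.37 in WT and -0.09 in LNCKO, and *Decr1*, a dienoyl-CoA reductase, 0.34 and -0.01. *Decr1* was the gene highest with butyrate in WT on this list, of whose 9 genes 4 were higher and 5 lower. In the carnitine and acyl-CoA synthesis list, 6 of 7 genes were lower in WT, with *Acss1*, mitochondrial acetyl-CoA synthetase, lowest at -0.47 (-0.03 in LNCKO) and *Acsf2* highest at 0.27. All 3 genes of electron transfer to ubiquinone, *Etfa*, *Etfb* and *Etfdh*, were lower in WT, by log2 changes from -0.14 to -0.03, and 2 of the 3 were higher in LNCKO. Among the other acyl-CoA dehydrogenases, *Acad9* was highest in WT at 0.19 and *Ivd*, of leucine breakdown, lowest at -0.28, with a list median of -0.02.

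Of the ketone body genes, all 3 described were lower in WT, with *Acat2*, the cytosolic thiolase, lowest at -0.51. Of the 10 peroxisomal beta-oxidation genes, 9 had a value below 0 in WT and 3 in LNCKO, with medians of -0.19 and 0.03. The 1 gene past the fold limit was *Crot*, the carnitine octanoyltransferase, at -0.35 in WT (0.07 in LNCKO), and *Decr2* was highest at 0.20. Of the 7 regulators described, none was past the fold limit with butyrate, and *Mlycd*, which breaks down the CPT1 inhibitor malonyl-CoA, was highest in WT at 0.28 and *Ppard* lowest at -0.24. The tricarboxylic acid cycle, which takes up the acetyl-CoA, had 14 of 17 genes below 0 in WT and 12 of 17 in LNCKO, with medians of -0.09 and -0.02 that lay within 0.1 of those of all genes. *Idh2* was highest in WT at 0.37 and *Fh1* lowest at -0.38, and their changes in LNCKO were -0.09 and -0.07.

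**Figure D5:**
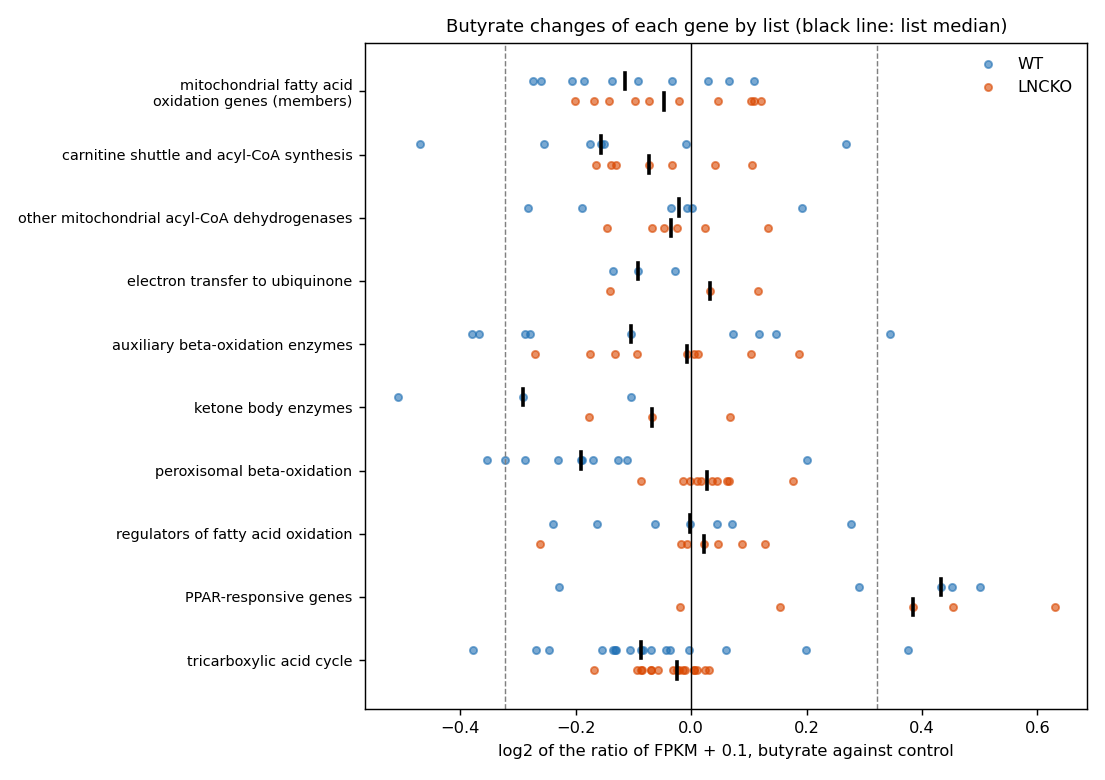
Each point is 1 gene that averaged 0.5 FPKM or more, or a member, placed by its log2 ratio of FPKM + 0.1 with butyrate against control (x axis) in WT and LNCKO macrophages, by list, with black lines at the list medians and dashed lines at the fold limit. The members have medians of -0.11 and -0.05, and the PPAR-responsive genes of 0.43 and 0.38.

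Between the genotypes, 1 of the 67 genes, *Hilpda*, was past the fold limit in the controls, where 4.46% of all genes were. With butyrate, where 11.5% of all genes were, *Acss1*, *Acaa2* and *Hilpda* were higher in LNCKO, by log2 differences of 0.38, 0.34 and 0.77, and the acyl-CoA thioesterase *Acot2* was lower, at -0.35. The response in WT exceeded that in LNCKO past the fold limit for *Decr1*, *Acot2* and *Idh2*, by 0.35, 0.32 and 0.46. It fell short of it by as much for *Mcee*, *Acss1*, *Crot*, *Acot13* and *Acat2*, with differences of -0.47, -0.43, -0.42, -0.38 and -0.33. These are 8 of the 67 genes, near the background of 13.6%.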

How the data were processed

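Macrophages were measured by RNA sequencing in 4 groups with 1 library each, grouped by the titles of the samples. The authors deposited FPKM values of 16375 genes without counts. The labels' processing notes list STAR 2.5.0c, HTSeq 0.6.0 and GRCm38 among others, with no role given, and the methods name a provider's web platform. The file names its columns by library, and those of LNCKO (NC and R3) do not spell the genotype, which rests on the titles.

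For each library, the total that turned most FPKM values into whole fragments on GENCODE M21 gene spans was searched, and fragments were recovered with it. Changes were taken as log2 of the ratio of FPKM + 0.1 over all listed genes, with shares over the 6809 genes that averaged 1 FPKM or more. A log2 change of 0.32 was used as the fold limit. Intervals of ratios are exact 95% (Clopper-Pearson) intervals of fragments between 2 libraries and compare these libraries, not the conditions. They were computed for 10426 genes with whole fragments and a mean of at least 200. Fragments are paired reads without molecular identifiers. No p-values were computed. Alternatives were a pseudocount of 1 or none, a fold of 1.5, no filter and scaling by the median ratio, and, added after seeing the data, a filter on 200 fragments and median-ratio scaling of the intervals.

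Genes named are the members, genes of the fatty acid oxidation and tricarboxylic acid cycle lists past the fold limit in a comparison, the highest and lowest of each list in WT, and neighbours or copies of a member, and some genes of the lists are not reported here. *Cd36*, from outside the lists, was added after its values had been seen. The members and lists were chosen with earlier results of these data known. The steps were tested on simulated data, where library totals and fragments were recovered. Start regions came from RefSeq (GRCm38.p6), and copies were searched with blastn 2.17.0. Tables were handled with pandas 2.3.3 and numpy 2.4.6 in Python 3.11.15, intervals with scipy 1.17.1 and plots with matplotlib 3.10.9.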

Additional observations from a re-analysis of the deposited data

Results flagged for a closer look

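The butyrate response of 3 genes had opposite signs in the 2 genotypes, and with 1 library in each group this difference was not tested. For *Acadvl*, the log2 response of WT minus that of LNCKO was -0.20, with a ratio below 1 in WT and above 1 in LNCKO by counting error, and the WT interval reached 1 when libraries were scaled by their median ratio. For *Echs1* the difference was -0.15, and its WT change, -0.03 as deposited, was 0.02 under that scaling. For *Hadh* it was 0.14, and both counting intervals held 1 as deposited.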

How the results depend on the processing

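No paired analysis was run, although control and butyrate of each genotype would make 2 pairs. The library names all carry the number 2, and the labels do not say whether it stands for a replicate or a batch. Leaving out a library would empty its group. The count of members past the fold limit stayed at 0 in the 5 comparisons with no pseudocount and with median-ratio scaling, which could have raised it. A fold of 1.5 could not, a pseudocount of 1 shrinks every ratio, and the filters on low values leave the members as they are. Member medians moved by at most 0.057 on the log2 scale. Of 150 recomputed member changes 147 stayed within 0.1, and 3 moved, all with a pseudocount of 1, which shrinks low values by construction: *Cpt2* in WT to -0.14, *Hadhb* in WT to -0.09 and *Hadhb* in LNCKO to -0.09. A sign change occurred in 6, each of a value under 0.1 in size. Scaling libraries by their median ratio, added after seeing the data, moved the number of members with a counting interval above 1 from 1 to 3 with butyrate in WT, from 1 to 0 between the controls and from 5 to 2 between the genotypes with butyrate, and left the other 5 such counts within 1.5 times. Among all genes, the share past the limit lay between 3.1% and 13.6% in the 5 comparisons, and between 1.47% and 7.59% with a pseudocount of 1, between 0.749% and 2.91% with a fold of 1.5 and between 6.74% and 17.7% with no filter on low values. Depth limits *Cpt2* and *Hadhb* most, with 881 to 1185 fragments a library.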
